A study of Mus musculus with 13 samples.

Results

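The genes described are 10 members of the TREM2-linked program of disease-associated microglia, chosen by name from the gene table of hippocampal RNA: Trem2, Tyrobp, Apoe, Cst7, Lpl, Spp1, Itgax, Clec7a, Cd9 and Gpnmb. All 10 were found among the 45777 genes of the table, and all 10 passed the filter on low counts in each comparison. The RNA came from whole hippocampi of young adult mice of both sexes on a C57BL/6N background, taken on day 3 after status epilepticus (SE), a prolonged seizure evoked with the muscarinic agonist pilocarpine at a dose of 260 mg/kg for male and 280 mg/kg for female mice, or after saline (sham). The mice formed 4 groups. SE-cKO (n = 3 mice) was Nestin-Cre::Lin28aloxP/loxP after pilocarpine, SE-WT (n = 3) was Nestin-Cre::Lin28a+/+ after pilocarpine, sham-cKO (n = 4) was Nestin-Cre::Lin28aloxP/loxP after saline, and sham-WT (n = 3) was Nestin-Cre::Lin28a+/+ after saline. All mice therefore carried Nestin-Cre, which recombines in neural progenitors and in the neurons, astrocytes and oligodendrocytes that descend from them, whereas microglia arise from yolk sac precursors. The labels give no sex for a library. Counts of Xist, which served as a covariate for sex, were 0, 38319 and 22387 in SE-cKO and 81, 29486 and 5 in SE-WT. They were 25, 20, 22271 and 115 in sham-cKO and 240, 12725 and 15237 in sham-WT. Libraries high in Xist were thus unevenly spread over the groups. Levels are read counts scaled to the library size by TMM (CPM), and tests are those of edgeR's quasi-likelihood method with Benjamini-Hochberg adjustment over all genes tested, called at an adjusted p under 0.05.

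Microglia are the resident macrophages of the brain. After injury, amyloid deposition or demyelination they can enter a disease-associated state in which surveillance genes give way to genes for lipid uptake, lysosomal digestion and phagocytosis. TREM2 is a surface receptor that binds lipids and lipoproteins such as APOE and signals through the adapter TYROBP, also known as DAP12, and in mouse models of amyloid disease the later step of this program depends on TREM2. Several members also have other sources in the brain: astrocytes make much of the APOE, and CD9 is found on oligodendrocyte precursors and endothelial cells as well.

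Totals ran from 59659977 to 84354243 read counts per library. Lin28a itself had 3 counts in SE-WT replicate 3 and 0 in every other library, so its level could not check the genotype labels, and a count of 0 allowed up to 0.0364 to 0.0506 CPM per library (3 counts, counting error only). The 13 homeostatic microglia markers summed to 1353 to 2246 CPM in SE-cKO, 1216 to 1556 CPM in SE-WT, 389 to 425 CPM in sham-cKO and 399 to 445 CPM in sham-WT, so microglia were sampled in every hippocampus. Genes of hippocampal principal neurons (8 genes) summed to 407 to 499 CPM in SE-cKO, 354 to 503 CPM in SE-WT, 612 to 885 CPM in sham-cKO and 707 to 861 CPM in sham-WT. Every library after SE was thus below every sham library. Of the 8 genes, 4 were called as lower in the cKO and 2 in the WT, beside 1901 of 21307 and 173 of 20803 genes tested, and 0 as higher. The 6 genes of striatal neurons summed to 1115 CPM in SE-WT replicate 2 against 37.0 to 95.4 CPM elsewhere, and 5 thalamic genes summed to 547 CPM in SE-WT replicate 3 and 938 CPM in sham-cKO replicate 2 against 54.6 to 100.3 CPM elsewhere. The 4 choroid plexus genes were uneven too. They summed to 1166 CPM in SE-cKO replicate 1, 643 CPM in SE-WT replicate 3 and 2628 CPM in sham-cKO replicate 3. In sham-WT they summed to 1424 CPM (replicate 2) and 4357 CPM (replicate 3), against 14.8 to 285 CPM in the remaining libraries. The 5 oligodendrocyte genes summed to 6092 CPM in SE-WT replicate 3 against 1921 to 3740 CPM elsewhere. The titles of SE-cKO replicate 3 and SE-WT replicate 3 are written in another style. In these, mitochondrial rRNA made up 3.92% (SE-cKO replicate 3) and 4.83% (SE-WT replicate 3) of all counts, while its share elsewhere was 0.486% to 1.66%. Results that changed without the libraries of raised striatal or thalamic genes, or without those of the other title style, are given with their values. No fit set the libraries high in choroid plexus genes aside together.

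The receptor and its adapter rose together after SE in both genotypes. Trem2 (chromosome 17, 48346401 to 48352276 on GRCm38) had 62.5, 57.5 and 31.7 CPM in SE-cKO, 45.0, 49.8 and 34.3 CPM in SE-WT, 6.90, 7.54, 7.001 and 6.03 CPM in sham-cKO and 8.63, 6.20 and 6.95 CPM in sham-WT. The lowest library after SE was well above the highest sham library, and the SE-cKO values lay on either side of the SE-WT values. Trem2 rose by a log2 fold change of 2.85 in SE-cKO over sham-cKO (adjusted p = 0.000100, standard error 0.23) and of 2.54 in SE-WT over sham-WT (adjusted p = 0.00167, standard error 0.21). In RNA from whole tissue, more microglia and more Trem2 RNA per microglial cell cannot be told apart, which holds for every level given here. Tyrobp (chromosome 7, 30413782 to 30417582) had 87.8, 105 and 62.0 CPM in SE-cKO, 77.7, 75.6 and 51.9 CPM in SE-WT, 10.6, 9.93, 10.9 and 9.32 CPM in sham-cKO and 10.5, 10.8 and 11.3 CPM in sham-WT. Its groups were ordered as those of Trem2, with overlap between the genotypes and none between SE and sham. Tyrobp rose by 3.03 in SE-cKO over sham-cKO (adjusted p = 2.51e-05, standard error 0.18) and by 2.63 in SE-WT over sham-WT (adjusted p = 0.00110, standard error 0.19). Between SE-cKO and SE-WT the log2 fold changes were 0.19 for Trem2 (adjusted p = 0.903, standard error 0.28) and 0.27 for Tyrobp (adjusted p = 0.806, standard error 0.24).

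The 250 bases upstream of a RefSeq start were searched on both strands for motifs of factors active in macrophages: the PU.1 core GAGGAA, the AP-1 site TGANTCA, the E-box TCACGTG of the MiT/TFE family and the NF-kB site. Windows were found for 8 of the 10 members, 12 windows in all. GAGGAA was present for Trem2, Clec7a, Apoe and Spp1, TGANTCA for Trem2 and Itgax, and neither TCACGTG nor the NF-kB site was present for any of the 8. Over all 32851 windows of the table, the shares with a match were 23.3% for GAGGAA, 6.75% for TGANTCA, 3.13% for TCACGTG and 0.980% for the NF-kB site, so the PU.1 core is a common match. The windows printed here belong to the receptors Trem2, Clec7a and Itgax, which were low in sham and high after SE. The sequences are from RefSeq (GRCm38.p6), written 5′ to 3′ on the strand of the gene, with matches in capitals (TTCCTC is GAGGAA on the other strand), and no match overlaps another.
Trem2, chr17:48346151-48346400, plus strand: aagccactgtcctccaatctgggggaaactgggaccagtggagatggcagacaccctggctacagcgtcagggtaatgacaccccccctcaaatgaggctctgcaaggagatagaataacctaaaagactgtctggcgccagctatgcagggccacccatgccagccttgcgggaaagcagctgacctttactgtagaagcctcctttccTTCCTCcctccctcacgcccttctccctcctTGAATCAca
Clec7a, chr6:129472786-129473035, minus strand: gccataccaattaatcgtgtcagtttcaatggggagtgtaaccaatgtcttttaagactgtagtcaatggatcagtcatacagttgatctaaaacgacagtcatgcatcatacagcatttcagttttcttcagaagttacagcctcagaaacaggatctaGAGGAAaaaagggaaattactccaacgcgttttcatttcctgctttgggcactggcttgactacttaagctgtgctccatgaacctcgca
Itgax, chr7:128129300-128129549, plus strand: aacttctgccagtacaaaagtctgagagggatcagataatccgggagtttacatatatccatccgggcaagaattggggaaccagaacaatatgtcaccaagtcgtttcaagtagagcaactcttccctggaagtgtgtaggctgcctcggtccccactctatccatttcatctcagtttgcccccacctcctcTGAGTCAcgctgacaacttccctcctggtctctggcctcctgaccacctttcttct
Distances are to the RefSeq start at the end of each printed window. In Trem2 the matches begin 40 bases (PU.1 core) and 9 bases (AP-1) upstream of it. In Clec7a the PU.1 core begins 90 bases upstream, and 96 bases upstream of another RefSeq start of the gene. In Itgax the AP-1 match begins 56 bases upstream of a start that lies inside the gene, whose coordinates begin at 128129526. A match in this window is a description of the letters, not of binding.

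Among the secreted and lipid-handling members, Spp1 changed most and Apoe and Lpl did not pass the test. Spp1 (chromosome 5, 104435111 to 104441053), which encodes osteopontin, a secreted ligand of integrins and CD44, had 755, 861 and 442.1 CPM in SE-cKO, 341, 80.9 and 84.7 CPM in SE-WT, 12.7, 4.54, 9.66 and 9.60 CPM in sham-cKO and 23.4, 4.13 and 5.01 CPM in sham-WT. Every SE-cKO library was above every SE-WT library, and every library after SE was above every sham library, but SE-WT replicate 1 and sham-WT replicate 1 each stood far above the others of their group. Spp1 rose by 6.20 in SE-cKO over sham-cKO (adjusted p = 3.46e-05, standard error 0.40). In SE-WT over sham-WT its log2 fold change was 3.93 (adjusted p = 0.0557, standard error 0.91), and it was 5.20 with adjusted p = 0.0379 without sham-WT replicate 1 and 2.91 with adjusted p = 0.0985 without SE-WT replicate 1. Apoe (chromosome 7, 19696244 to 19701310), the apolipoprotein that carries cholesterol between brain cells and a ligand of TREM2, had 1822, 1210 and 1088 CPM in SE-cKO, 1070, 1483 and 1580 CPM in SE-WT, 1054, 959, 1009 and 773 CPM in sham-cKO and 1206, 1061 and 1211 CPM in sham-WT. The genotypes overlapped after SE, and SE-WT overlapped sham-WT. Its log2 fold change was 0.51 in SE-cKO over sham-cKO (adjusted p = 0.101, standard error 0.20) and 0.22 in SE-WT over sham-WT (adjusted p = 0.527, standard error 0.18). Without SE-cKO replicate 3 the value in the cKO was 0.68 with adjusted p = 0.0451. The 7 astrocyte markers summed to 4369 to 4646 CPM in SE-cKO, 4169 to 5159 CPM in SE-WT, 4199 to 5614 CPM in sham-cKO and 4552 to 4894 CPM in sham-WT, with overlap in every comparison. The sum holds genes that moved in both directions: in SE-cKO over sham-cKO, Aldh1l1, Aqp4, Sox9 and Fgfr3 were called as higher, by log2 fold changes of 0.59 (Fgfr3) to 1.92 (Aldh1l1), and Slc1a2 as lower (-0.86, edgeR adjusted p = 0.00767), and in SE-WT over sham-WT, Aldh1l1, Aqp4 and Sox9 were called as higher. These genes are named after their values were seen, and the part of astrocytes in the level of Apoe was not tested. Lpl (chromosome 8, 68880555 to 68906932), the lipase that frees fatty acids from lipoproteins, had 15.7, 24.2 and 11.5 CPM in SE-cKO, 15.2, 38.8 and 24.9 CPM in SE-WT, 15.1, 13.3, 25.8 and 21.4 CPM in sham-cKO and 14.8, 16.6 and 20.8 CPM in sham-WT. All 4 groups overlapped, and the highest value was that of SE-WT replicate 2, where striatal genes were high. The log2 fold change of Lpl was -0.17 in SE-cKO over sham-cKO (adjusted p = 0.757, standard error 0.30) and 0.57 in SE-WT over sham-WT (adjusted p = 0.385, standard error 0.33).

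The other surface proteins were near the limit of detection or low in sham hippocampi, except Cd9. Clec7a (chromosome 6, 129461591 to 129472785), which encodes dectin-1, a receptor for beta-glucans that signals through SYK, had 25.3, 32.7 and 13.8 CPM in SE-cKO, 15.0, 21.0 and 11.6 CPM in SE-WT, 0.534, 0.560, 0.955 and 0.705 CPM in sham-cKO and 0.407, 0.511 and 0.253 CPM in sham-WT. SE and sham were far apart, and the genotypes overlapped after SE. Clec7a rose by 5.09 in SE-cKO over sham-cKO (adjusted p = 5.24e-05, standard error 0.35) and by 5.30 in SE-WT over sham-WT (adjusted p = 0.00110, standard error 0.38). Itgax (chromosome 7, 128129526 to 128150657), the integrin subunit CD11c, had 7.87, 7.81 and 6.10 CPM in SE-cKO, 6.48, 1.97 and 1.80 CPM in SE-WT, 0.243, 0.451, 0.273 and 0.508 CPM in sham-cKO and 0, 0.276 and 0.253 CPM in sham-WT. SE-WT replicate 1 was within the range of SE-cKO, while the other SE-WT libraries were below it. Itgax rose by 4.28 in SE-cKO over sham-cKO (adjusted p = 8.18e-05, standard error 0.33), and had a log2 fold change of 4.26 in SE-WT over sham-WT (adjusted p = 0.0769, standard error 1.10), which was 3.40 with adjusted p = 0.176 without SE-WT replicate 1 and 3.67 with adjusted p = 0.0779 without sham-WT replicate 1. Cd9 (chromosome 6, 125460266 to 125494760), a tetraspanin of the cell membrane and of vesicles, had 242, 284 and 239 CPM in SE-cKO, 142, 124 and 135 CPM in SE-WT, 28.4, 34.0, 33.0 and 27.5 CPM in sham-cKO and 42.7, 33.9 and 35.6 CPM in sham-WT. The 3 SE-cKO libraries were all above the 3 SE-WT libraries, with little spread within either group. Cd9 rose by 3.03 in SE-cKO over sham-cKO (adjusted p = 1.11e-05, standard error 0.13) and by 1.81 in SE-WT over sham-WT (adjusted p = 0.00118, standard error 0.13).

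The remaining members act in the endosomal and lysosomal system. Gpnmb (chromosome 6, 49036518 to 49058182), a transmembrane glycoprotein of lysosomes and melanosomes, had 80.3, 133 and 90.7 CPM in SE-cKO, 34.6, 26.3 and 44.3 CPM in SE-WT, 3.13, 3.90, 2.197 and 2.95 CPM in sham-cKO and 1.97, 3.42 and 4.05 CPM in sham-WT. As for Cd9, the genotypes did not overlap after SE, and they overlapped in sham. Gpnmb rose by 5.03 in SE-cKO over sham-cKO (adjusted p = 1.35e-05, standard error 0.25) and by 3.45 in SE-WT over sham-WT (adjusted p = 0.00271, standard error 0.32). Cst7 (chromosome 2, 150570415 to 150578944), which encodes cystatin F, an inhibitor of lysosomal cysteine cathepsins, had 17.4, 26.7 and 13.04 CPM in SE-cKO, 10.03, 7.17 and 4.20 CPM in SE-WT, 0, 0.233, 0 and 0 CPM in sham-cKO and 0.321, 0.221 and 0.169 CPM in sham-WT. The sham values came from 0, 15, 0 and 0 counts in sham-cKO and from 26, 16 and 10 counts in sham-WT. Cst7 rose by a fitted log2 fold change of 8.37 in SE-cKO over sham-cKO (adjusted p = 0.000608, standard error 0.99) and of 4.86 in SE-WT over sham-WT (adjusted p = 0.00271, standard error 0.46). The cKO fold rests on 1 sham library with counts: without sham-cKO replicate 2 every sham-cKO library was listed at 0 and the fitted value was 13.41, so its size is set by how the fit handles zeros.

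**Figure D1:**
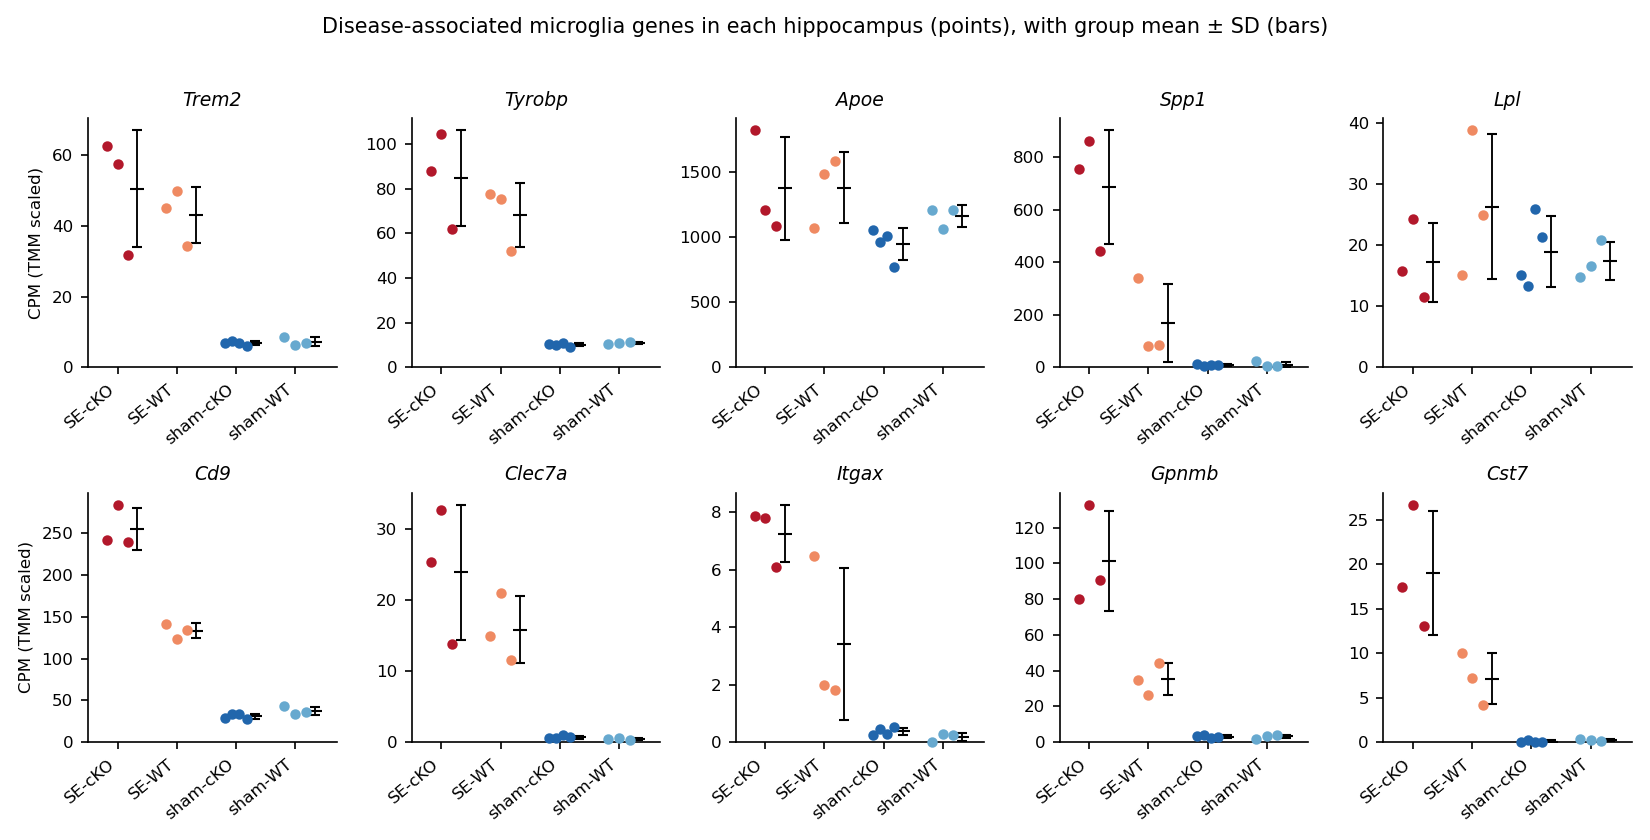
Level of each member in each hippocampus in CPM (linear axes from 0, 1 point per library), by group from SE-cKO to sham-WT, with the group mean and SD as black bars. Cst7, Spp1, Cd9 and Gpnmb show all 3 SE-cKO points above all 3 SE-WT points, and Apoe and Lpl show the genotypes overlapping after SE.

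Counted over the list, 8 of the 10 members rose in SE-cKO over sham-cKO and 6 of 10 rose in SE-WT over sham-WT, and none fell. Over all genes tested, 2937 of 21307 (13.8%) rose in SE-cKO over sham-cKO and 951 of 20803 (4.57%) in SE-WT over sham-WT. The median log2 fold change of the 10 members was 3.65 in the cKO and 3.04 in the WT, beside medians over all genes tested of -0.00059 in the cKO and 0.015 in the WT. Every library after SE was above every sham library of the genotype for 9 members in the cKO (all but Lpl) and for 8 in the WT (all but Apoe and Lpl), beside 19.0% and 16.3% of 22594 genes with such a separation upward. The members called in the cKO and not in the WT were Spp1 and Itgax, whose WT folds had wide errors and for which SE-WT replicate 1 was above the other SE-WT libraries, and neither was called in the interaction of genotype and SE. This difference in calls depended on the fit: in the WT, Spp1 was called in 8 of 17 alternatives and Itgax in 4 of 17. DESeq2 called both in the WT, with adjusted p of 0.00144 for Spp1 and 0.000392 for Itgax. In SE-WT replicate 1 the 5 monocyte markers summed to 29.5 CPM, against 4.03 and 3.14 CPM in the other SE-WT libraries. Their part in the levels of Spp1 and Itgax was not tested.

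**Figure D2:**
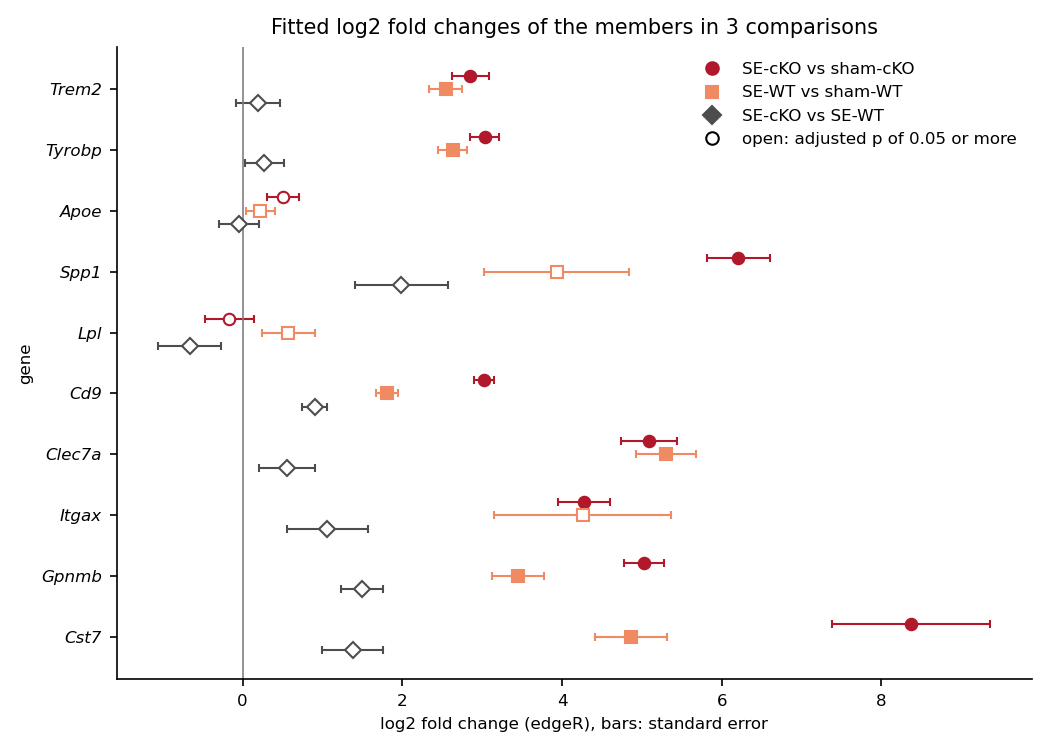
Fitted log2 fold changes (x axis) with standard errors for the 10 members in SE-cKO over sham-cKO, SE-WT over sham-WT and SE-cKO over SE-WT, with filled symbols for an adjusted p under 0.05. The values for SE-cKO over SE-WT are all open and run from -0.66 (Lpl) to 1.99 (Spp1).

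Between SE-cKO and SE-WT, the comparison of the genotypes after seizures, the levels of 4 members separated without passing the test. None of the 10 members was called by edgeR, as was the case for 0 of all 21126 genes (0.0%), of which 2046 had an unadjusted p under 0.05. Cd9 averaged 255 ± 25.2 CPM in SE-cKO and 133 ± 9.18 CPM in SE-WT (SD, n = 3 each), with a log2 fold change of 0.90 (edgeR adjusted p = 0.261, standard error 0.15). Gpnmb averaged 101 ± 27.9 CPM in SE-cKO and 35.1 ± 8.98 CPM in SE-WT, a log2 fold change of 1.496 (adjusted p = 0.268, standard error 0.26). For Cst7 the means were 19.1 ± 6.97 CPM in SE-cKO and 7.13 ± 2.91 CPM in SE-WT, with 1.38 on the log2 scale (adjusted p = 0.347, standard error 0.38). For Spp1 they were 686 ± 218 CPM in SE-cKO and 169 ± 149 CPM in SE-WT, with 1.99 (adjusted p = 0.363, standard error 0.58). These 4 members were also those with an unadjusted p under 0.05 (higher in the cKO for 5.42% of all genes tested) and those with every SE-cKO library above every SE-WT library (8.86% of 22594 genes). DESeq2, which called 535 of 16972 genes and 307 of them (1.81%) as higher in SE-cKO, called the same 4 members, with adjusted p of 7.92e-05 for Cd9, 0.000204 for Gpnmb, 0.0151 for Spp1 and 0.0293 for Cst7. In simulated data for this comparison, DESeq2 made 84 false calls and edgeR 14 among 20394 genes. A fit of all 4 groups called Cd9 (0.94, adjusted p = 0.0119) and Gpnmb (1.53, adjusted p = 0.0371). With Xist added to that fit as a covariate, Cd9 alone was called (0.94, adjusted p = 0.0199). Itgax had a log2 fold change of 1.06 (adjusted p = 0.558, standard error 0.51), Clec7a of 0.55 (adjusted p = 0.696, standard error 0.35), Apoe of -0.05 (adjusted p = 0.983, standard error 0.25) and Lpl of -0.66 (adjusted p = 0.668, standard error 0.39).

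Markers of other cell types were summed in the same libraries, and between SE-cKO and SE-WT the sums of oligodendrocyte precursors did not overlap, while those of monocytes, endothelial cells, fibroblasts, border macrophages and neutrophils did. The 5 monocyte markers (Ccr2, Ly6c2, Plac8, Chil3 and F10) summed to 40.4, 86.9 and 18.5 CPM in SE-cKO, 29.5, 4.03 and 3.14 CPM in SE-WT, 1.46 to 2.70 CPM in sham-cKO and 1.18 to 2.21 CPM in sham-WT. All 5 rose in SE-cKO over sham-cKO and 0 of the 4 tested were called in SE-WT over sham-WT, and 0 of 5 were called between SE-cKO and SE-WT, where their median log2 fold change was 2.23. The counts at an unadjusted p under 0.05 were 2 of 4 in SE-WT over sham-WT and 0 of 5 between SE-cKO and SE-WT. Among them Ccr2, the chemokine receptor that defines recruited monocytes, had 16.7, 31.4 and 5.79 CPM in SE-cKO against 8.86, 1.74 and 0.665 CPM in SE-WT. The 4 markers of oligodendrocyte precursors summed to 333, 409 and 395 CPM in SE-cKO, 271, 276 and 230 CPM in SE-WT, 177 to 190 CPM in sham-cKO and 160 to 177 CPM in sham-WT. Of these 4 markers, 0 were called between SE-cKO and SE-WT. Their log2 fold changes there were 0.93 for Cspg4, 0.85 for Vcan and 0.35 for Pdgfra, but -0.30 for Lhfpl3. The 7 markers of border macrophages ran from 22.7 to 51.6 CPM in SE-cKO and from 21.6 to 41.5 CPM in SE-WT, and the 5 neutrophil markers from 1.22 to 9.31 CPM in SE-cKO and from 0.262 to 1.53 CPM in SE-WT. The 4 endothelial markers summed to 85.3 to 181 CPM in SE-cKO, 65.1 to 145 CPM in SE-WT, 53.4 to 78.4 CPM in sham-cKO and 65.0 to 68.2 CPM in sham-WT. Of these 4, Cldn5, Pecam1 and Cdh5 were called as higher in SE-cKO over sham-cKO. In SE-WT over sham-WT and between SE-cKO and SE-WT, 0 of the 4 were called. Pecam1 had a log2 fold change of 0.67 between SE-cKO and SE-WT (unadjusted p = 0.0211, edgeR adjusted p = 0.419). Flt1 had -0.078 in SE-cKO over sham-cKO and -0.35 between SE-cKO and SE-WT. Cldn5, Pecam1 and Cdh5 are named after their values were seen. The 4 fibroblast markers summed to 109 to 207 CPM in SE-cKO and 36.9 to 126 CPM in SE-WT. The part of these cells in the levels of Spp1, Cst7, Gpnmb and Cd9 was not tested. Within the libraries of the common title style (2 SE-cKO and 2 SE-WT) the log2 fold changes were 0.92 for Cd9, 1.75 for Gpnmb, 1.30 for Cst7 and 1.88 for Spp1. The other style holds 1 library per genotype and gives no test. With the 3 libraries of raised striatal or thalamic genes set aside, which leaves 1 SE-WT library, the values were 0.82 for Cd9, 1.52 for Gpnmb, 0.89 for Cst7 and 0.97 for Spp1.

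Between sham-cKO and sham-WT, 0 of the 10 members and 0 of 20785 genes (0.0%) were called, while 1152 genes (5.54%) had an unadjusted p under 0.05 and DESeq2 called 17. Apoe and Cd9 had unadjusted p under 0.05, with log2 fold changes of -0.28 for Apoe (edgeR adjusted p = 0.868, standard error 0.12) and -0.27 for Cd9 (adjusted p = 0.868, standard error 0.12). Trem2 had -0.067 (standard error 0.16) and Tyrobp -0.080 (standard error 0.11), so for these the sham genotypes differed by less than the error.

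The interaction, the SE effect in the cKO minus that in the WT over all 13 libraries, was called for Cd9 alone among the 10 members, beside 19 of 22596 genes (0.0841%) called as positive and 17 as negative. Its value was 1.22 (edgeR adjusted p = 0.0418, standard error 0.17), and Cd9 ranked 4 by p among all genes. The call was lost when any of 9 libraries was left out (all 7 sham libraries, SE-WT replicate 2 or SE-cKO replicate 2), with values between 1.07 and 1.27. Gpnmb had 1.58 (adjusted p = 0.148, standard error 0.40), while the DESeq2 test called it (adjusted p = 0.0112). Spp1 had 2.27 (adjusted p = 0.340, standard error 0.94) and Cst7 3.51 (adjusted p = 0.244, standard error 1.19), where 3 sham-cKO libraries of Cst7 were at 0. Trem2 had 0.31 (adjusted p = 0.742, standard error 0.32) and Tyrobp 0.40 (adjusted p = 0.549, standard error 0.26).

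**Figure D3:**
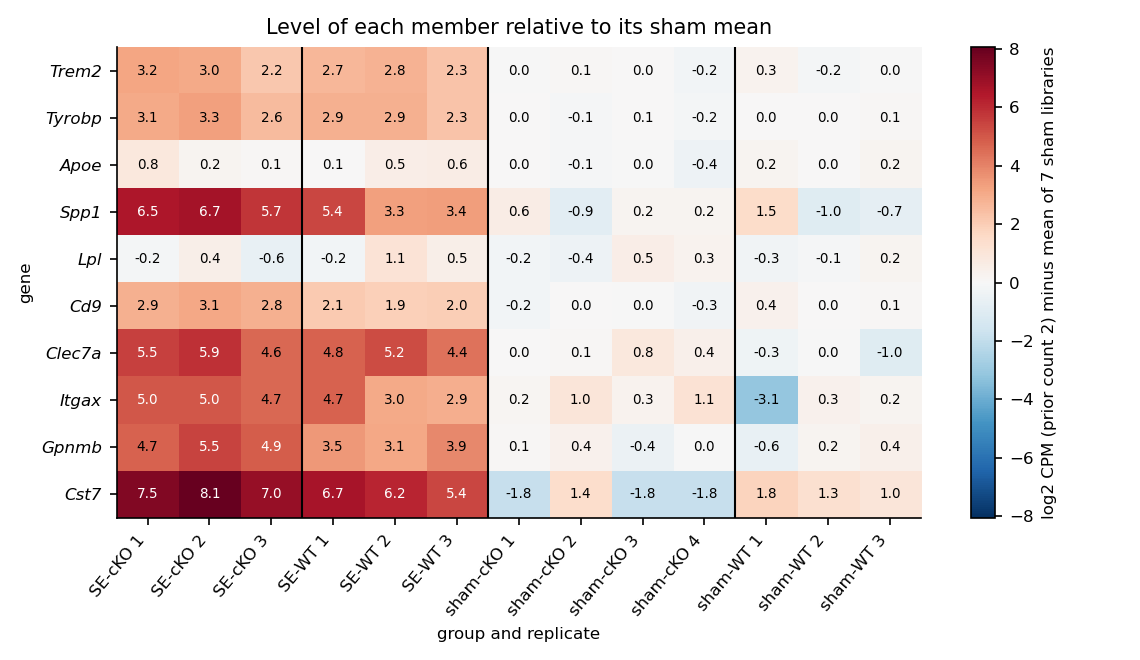
Log2 CPM of each member (rows) in each of the 13 libraries (columns) minus its mean over the 7 sham libraries, red for higher and blue for lower, with the value printed in each cell. Trem2 and Tyrobp are between 2.2 and 3.3 in all 6 libraries after SE, while Apoe lies between 0.056 and 0.82 and Lpl between -0.62 and 1.12 in the same libraries; the blue cells of Itgax and Cst7 in sham are libraries listed at 0.

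Within the groups, the members shared high and low libraries only in part. SE-cKO replicate 3 was the lowest SE-cKO library for 9 of the 10 members (all but Gpnmb), and its sum of homeostatic microglia markers was also the lowest of the group, 1353 CPM against 2067 and 2246 CPM. SE-cKO replicate 2 was the highest SE-cKO library for 7 members. Among SE-WT libraries, replicate 1 was highest for Tyrobp, Cst7, Spp1, Itgax and Cd9, and replicate 3 was lowest for Trem2, Tyrobp, Cst7, Itgax and Clec7a, where the homeostatic sum was 1216 CPM against 1556 and 1510 CPM in the other SE-WT libraries.

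Levels of different members can be set side by side only per length, for which the deposited TPM values serve. In SE-cKO the order of mean TPM was Apoe (1397), Spp1 (618), Cd9 (279), Tyrobp (190), Trem2 (58.7), Gpnmb (34.7), Cst7 (24.8), Clec7a (13.8), Lpl (5.44) and Itgax (2.48). Trem2 and Gpnmb overlapped, as did Gpnmb and Cst7, and the other neighbours did not. In SE-WT it was Apoe (1438), Spp1 (155), Tyrobp (154), Cd9 (148), Trem2 (50.6), Gpnmb (12.5), Cst7 (9.32), Clec7a (9.18), Lpl (8.40) and Itgax (1.18), where Spp1, Tyrobp and Cd9 overlapped, and so did each neighbour from Gpnmb to Lpl. In sham hippocampi Apoe was again the highest (1042 TPM in sham-cKO and 1123 TPM in sham-WT), followed in sham-cKO by Cd9 (35.8), Tyrobp (24.8), Spp1 (9.09), Trem2 (8.70) and Lpl (6.59) and in sham-WT by Cd9 (38.5), Tyrobp (23.4), Spp1 (8.88), Trem2 (8.09) and Lpl (5.34). Spp1 and Trem2 overlapped in both sham groups. Spp1 therefore stood near Trem2 in sham and above it in every library after SE, while Lpl overlapped Trem2 in sham-cKO and stood below it in every library after SE.

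To set the members beside the homeostatic markers, each was expressed per 100 CPM of the summed 13 homeostatic markers, which themselves rose after SE. Their log2 fold changes were unequal, from 0.74 (Siglech) to 3.63 (Fcrls) in the cKO and from 0.78 (P2ry13) to 2.60 (Fcrls) in the WT. The sum is therefore not a measure of microglial RNA as a whole. Trem2 was at 2.64 ± 0.349 in SE-cKO, 3.00 ± 0.260 in SE-WT (SD, n = 3 each), 1.70 ± 0.166 in sham-cKO (n = 4) and 1.72 ± 0.311 in sham-WT (n = 3). Tyrobp was at 4.50 ± 0.219 in SE-cKO, 4.76 ± 0.423 in SE-WT, 2.52 ± 0.204 in sham-cKO and 2.57 ± 0.236 in sham-WT. On this scale both genes were higher after SE in every library, by less than on the CPM scale, and the genotypes overlapped. Spp1 was at 36.5, 38.3 and 32.7 in SE-cKO, 21.9, 5.35 and 6.96 in SE-WT, 1.12 to 2.98 in sham-cKO and 0.928 to 5.45 in sham-WT. Its SE-WT range reached into that of sham-WT, while SE-cKO stood above all others. Cd9 was at 11.7, 12.6 and 17.7 in SE-cKO and 9.12, 8.19 and 11.1 in SE-WT, where sham-WT had 7.61 to 9.97, so that in the WT Cd9 overlapped sham. Gpnmb was at 3.88, 5.92 and 6.70 in SE-cKO against 2.22, 1.74 and 3.64 in SE-WT, and Cst7 at 0.843, 1.19 and 0.964 in SE-cKO against 0.644, 0.475 and 0.345 in SE-WT. Since the summed markers rose, most genes were lower after SE on this scale: every SE library was below every sham library for 75.0% of 22594 genes in the cKO and 74.2% in the WT. Apoe and Lpl were among them, with Apoe at 53.8 to 88.1 in SE-cKO, 68.8 to 130 in SE-WT, 193 to 259 in sham-cKO and 238 to 304 in sham-WT. Lpl was at 0.759 to 1.08 in SE-cKO, 0.975 to 2.57 in SE-WT, 3.28 to 6.63 in sham-cKO and 3.44 to 5.21 in sham-WT. Every SE library was above every sham library for 8 members in the cKO and 6 in the WT, beside 2.96% and 2.27% of all genes, and every SE-cKO library was above every SE-WT library for Cst7, Spp1, Cd9 and Gpnmb, beside 2.53%.

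**Figure D4:**
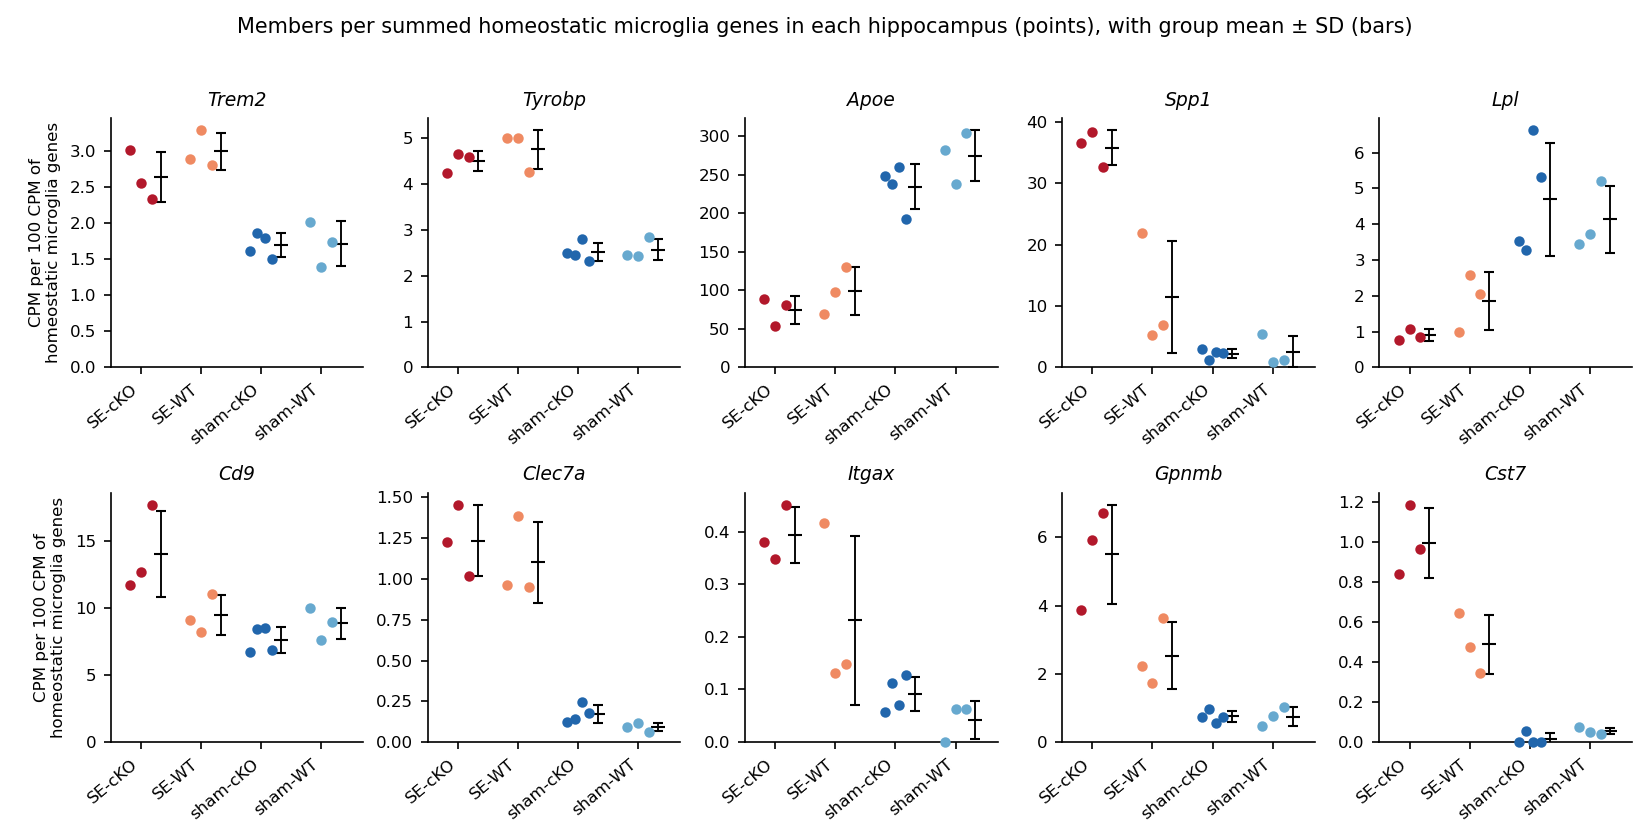
Each member in CPM per 100 CPM of the summed 13 homeostatic microglia genes (linear axes from 0, 1 point per library), by group, with the mean and SD as black bars. Apoe and Lpl lie lower after SE than in sham, as do 75.0% of all genes in the cKO and 74.2% in the WT, Spp1 is at 32.7 to 38.3 in SE-cKO against 5.35 to 21.9 in SE-WT, and Trem2 and Tyrobp overlap between the genotypes.

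In the edgeR fit with libraries scaled to those 13 markers, which moved the median of all genes by -2.12 (log2) in SE-cKO over sham-cKO, -1.69 in SE-WT over sham-WT and -0.32 in SE-cKO over SE-WT, 8 members were called as higher in the cKO and 6 in the WT, beside 2.65% and 1.59% of all genes. Trem2 kept a log2 fold change of 0.64 in the cKO (adjusted p = 0.00954) and 0.81 in the WT (adjusted p = 0.00690). Cd9 had 0.88 in the cKO (adjusted p = 0.00295) and 0.098 in the WT (adjusted p = 0.623). Most genes were called as lower on this scale, 78.1% in the cKO and 75.0% in the WT, so that such a call is no result about a single gene. Apoe was among them, at -1.66 in the cKO (adjusted p = 0.000165) and -1.47 in the WT (adjusted p = 0.00134), as was Lpl, at -2.39 in the cKO (adjusted p = 5.39e-05) and -1.15 in the WT (adjusted p = 0.0221). None of the members was called between SE-cKO and SE-WT on this scale, nor was any other gene, while 1736 genes had an unadjusted p under 0.05.

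Of 18 other genes of the disease-associated program, 15 rose in SE-cKO over sham-cKO and 14 in SE-WT over sham-WT, and none fell, with median log2 fold changes of 2.54 in the cKO and 1.95 in the WT. With libraries scaled to the homeostatic markers, 7 were called as higher and 6 as lower in each genotype, with medians of 0.37 in the cKO and 0.22 in the WT beside medians over all genes of -2.12 in the cKO and -1.69 in the WT. Cd52, a small surface glycoprotein of leukocytes, rose by 5.46 in the cKO (adjusted p = 1.35e-05) and by 4.07 in the WT (adjusted p = 0.00328). B2m, the light chain of MHC class I, rose by 2.55 in the cKO (adjusted p = 1.52e-05) and by 2.07 in the WT (adjusted p = 0.0101), and Cd63, a tetraspanin of late endosomes, by 2.56 in the cKO (adjusted p = 1.70e-05) and by 1.84 in the WT (adjusted p = 0.00271). Csf1, a growth factor for microglia, rose by 2.04 in the cKO (adjusted p = 2.00e-05) and had 0.93 in the WT (adjusted p = 0.0768). Of 13 signalling partners of TREM2 and TYROBP, 11 rose in the cKO and 10 in the WT, with medians of 2.55 in the cKO and 1.90 in the WT. On the scale of the homeostatic markers, 5 were higher and 3 lower in the cKO, 1 was higher and 3 were lower in the WT, and the medians were 0.43 in the cKO and 0.17 in the WT. Pik3ap1, an adapter for PI3 kinase, rose by 3.02 in the cKO (adjusted p = 2.06e-05) and by 2.89 in the WT (adjusted p = 0.00441). Ptpn6, the phosphatase SHP-1 that limits this signalling, rose by 3.45 in the cKO (adjusted p = 6.23e-05) and by 2.19 in the WT (adjusted p = 0.00269). Lyn, a SRC-family kinase that phosphorylates such adapters, rose by 2.66 in the cKO (adjusted p = 5.42e-05) and by 2.17 in the WT (adjusted p = 0.00273), and Pik3cg, a catalytic subunit of PI3 kinase, by 2.46 in the cKO (adjusted p = 7.57e-05) and by 1.95 in the WT (adjusted p = 0.00296).

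The homeostatic genes, which mark surveying microglia, rose too: 13 of 13 in each genotype, with medians of 1.90 in SE-cKO over sham-cKO and 1.45 in SE-WT over sham-WT. With libraries scaled to their own sum, 2 were called as higher and 4 as lower in the cKO. In the WT 2 were called as higher and 5 as lower on that scale, and the medians were -0.30 in the cKO and -0.22 in the WT. Olfml3 rose by 3.46 in the cKO (adjusted p = 1.87e-05) and by 2.49 in the WT (adjusted p = 0.000835). Fcrls rose by 3.63 in the cKO (adjusted p = 2.00e-05) and by 2.60 in the WT (adjusted p = 0.00158). Csf1r rose by 2.02 in the cKO (adjusted p = 9.50e-05) and by 1.70 in the WT (adjusted p = 0.00164). Tmem119 rose by 2.12 in the cKO (adjusted p = 0.000101) and by 1.20 in the WT (adjusted p = 0.00507). In the WT the counts of genes that rose depended on the sham libraries, since without sham-WT replicate 2 they were 8 of 18 for the other disease-associated genes, 6 of 13 for the partners and 7 of 13 for the homeostatic genes, and without sham-WT replicate 1 or 3 the homeostatic count was 8 of 13. Calls over all genes fell as well, from 951 of 20803 to 279 of 21653 without sham-WT replicate 2. Without replicate 1 they were 483 of 21649, and without replicate 3 they were 417 of 21602. In each of the 3 lists 0 genes were called between SE-cKO and SE-WT, where the medians were 0.46 for the other disease-associated genes, 0.68 for the partners and 0.38 for the homeostatic genes. An unadjusted p under 0.05 was found for 6 of the other disease-associated genes, 9 of the partners and 4 of the homeostatic genes, all with a higher level in SE-cKO. Over all genes tested this held for 1144 of 21126 (5.42%). DESeq2 called 3 of the other disease-associated genes, 2 of the partners and 1 of the homeostatic genes as higher, beside 307 of 16972 genes (1.81%).

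The genes whose pattern over the 13 libraries was most like that of Trem2, by the root mean square difference of log2 CPM relative to each gene's own sham mean among 13954 genes, were Ctsd (0.14), Tyrobp (0.19), Hvcn1 (0.19), Ctss (0.20), Fcgr3 (0.21), Adgre1 (0.21), Plek (0.21), Cd53 (0.23), Cd84 (0.25) and Dhrs1 (0.26). Ctsd and Ctss encode lysosomal cathepsins, Fcgr3 an Fc receptor, Adgre1 the macrophage antigen F4/80, and Hvcn1 a proton channel of phagocytes. Tyrobp was the only member among these 10. Cd9 ranked 74 (0.39), and the other members ranked from 1318 (Gpnmb, 1.26) to 13862 (Cst7, 3.05), either with larger changes than Trem2 or, for Apoe and Lpl, with smaller ones.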

How the data were processed

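Hippocampal RNA of 13 mice was made into TruSeq stranded total RNA libraries. The submitters' processing notes list bcl2fastq 2.20.0, Trimmomatic, HISAT2 2.1.0 (build mm10) and StringTie 2.1.3b. The strand setting is not given in the sources used here. The authors deposited a table of read counts, FPKM and TPM for 45777 genes, with whole-number counts of unequal totals. Tests used the read counts, levels between genes the deposited TPM values, and their alternative the deposited FPKM values.

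Genes passed filterByExpr (at least 10 counts, at least 15 in total), factors were from TMM, and the test was edgeR 4.0.16's quasi-likelihood test, made robust, in R 4.3.3. Each fit held the groups compared, and the interaction used all libraries. Log2 CPM used a prior count of 2. The study names no test for its genes. Precision rests on 3 or 4 mice per group. Alternatives were DESeq2 1.42.0, voom in limma 3.58.1 with quality weights, RLE factors, an unfiltered table, 1 fit over all groups, a block for the replicate number, Xist as a covariate, title style as a factor, fits without the 2 libraries of the other title style or the 3 with raised striatal or thalamic genes, scaling to homeostatic microglia genes, and fits without each library. The methods were tested on counts simulated for SE-cKO against SE-WT from the spread fitted by edgeR, where DESeq2 made more false calls than edgeR. The members, lists, tests and alternatives were chosen with earlier results of these data known. Beside the members, up to 4 genes were named from each list of other disease-associated genes, partners and homeostatic genes. These were the genes with the smallest p in SE-cKO against sham-cKO. The 10 genes closest to Trem2 were named as well. Upstream windows are from RefSeq on GRCm38.p6.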

Additional observations from a re-analysis of the deposited data

Results flagged for a closer look

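Cst7 in sham-cKO had 1 library far from the others, replicate 2 at 0.233 CPM (15 counts) with the other 3 libraries at 0. Dixon's 95% criterion, by which this library was picked out, marks about 1 in 20 groups by chance where values are not tied. With the other 3 libraries at 0 it marks any library with counts, so that rate does not hold here. The table can also list a gene at 0 where its estimate failed. The SE effect on Cd9 differed between the genotypes by the interaction test, with 1.22 on the log2 scale (edgeR adjusted p = 0.0418). This call was lost in 13 of 23 alternatives, 9 of them fits without a single library. All 3 SE-cKO libraries were above all 3 SE-WT libraries, at 239 to 284 CPM in SE-cKO and 124 to 142 CPM in SE-WT. Such a separation was found for 8.86% of 22594 genes, and edgeR did not call Cd9 between SE-cKO and SE-WT (adjusted p = 0.261).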

How the results depend on the processing

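The number of members called, in either direction, was 8 to 10 in SE-cKO over sham-cKO, 6 to 8 in SE-WT over sham-WT and 0 between the sham groups under every alternative. With microglia scaling it was made up of 8 higher and 2 lower in the cKO and of 6 higher and 2 lower in the WT, where Cd9 was no longer called and Spp1 was. Between SE-cKO and SE-WT, 4 were called by DESeq2, 2 in the fit of all groups and 1 with Xist as a covariate, against 0 otherwise. In the interaction, 2 were called by DESeq2, and 0 with the replicate block, with Xist, without the 3 libraries of raised striatal or thalamic genes and with microglia scaling; leaving out single libraries gave 0 to 1. Replicate numbers did not pair the libraries (correlations of deviations from -0.074 to 0.25), and the replicate block changed no other count of members beyond 1 more in SE-WT over sham-WT (7).

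Microglia scaling moves all genes by its shift (medians of -1.69 in SE-WT over sham-WT, -2.12 in SE-cKO over sham-cKO, -0.32 between SE-cKO and SE-WT and -0.40 in the interaction), which turns the sign of small values: Apoe was -1.47 and Lpl -1.15 in SE-WT over sham-WT and Apoe -1.66 in SE-cKO over sham-cKO; Trem2 was -0.18 and Tyrobp -0.081 between SE-cKO and SE-WT and -0.17 and -0.052 in the interaction. Signs also turned for small values elsewhere. Without the 3 libraries above, Apoe was -0.12 and Lpl -0.20 in SE-WT over sham-WT, and Apoe 0.32 and Lpl 0.14 between SE-cKO and SE-WT. Without the 2 libraries of the other title style, Lpl was 0.079 in SE-cKO over sham-cKO and Apoe 0.18 between SE-cKO and SE-WT, where Apoe was 0.082 with voom and 0.023 with Xist. Leaving out single libraries, Lpl ran from -0.49 to 0.079 in SE-cKO over sham-cKO and Apoe from -0.29 to 0.085 between SE-cKO and SE-WT. The cause of these other changes of sign was not tested. With FPKM in place of TPM, the order of members was the same in 3 of 4 groups. The zeros listed for Cst7 and Itgax in sham may be failed estimates, so they set no limit on these levels.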
